A study of Mus musculus with 16 samples.

Results

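Gene expression was compared between RAW 264.7 cells incubated for 120 min with cordycepin at 20 μM and cells kept for the same 120 min in its vehicle, DMSO, with no LPS in either group. RAW 264.7 is an established mouse line with macrophage features that was raised from a virus-induced leukaemia, so all samples come from one line. The comparison was defined by the labels alone, as the 4 cordycepin and 4 DMSO samples of a series of 16. The other 8 samples received LPS at 1 μg/ml for the last 60 min, after 60 min with cordycepin or DMSO. All cells had been moved to low serum a day before treatment. The wells of a replicate number shared one plate and one collection day, and replicates 1 and 2 of every group lay on one array slide and replicates 3 and 4 on the other. All 55681 probes of the 1-colour Agilent mouse arrays other than controls were read, and 15877 genes had a probe bright enough to be tested.

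Cordycepin is 3'-deoxyadenosine, an adenosine analogue that lacks the hydroxyl group to which the next nucleotide of an RNA chain is joined. Inside cells it is phosphorylated, and its triphosphate can be built into RNA in place of ATP and ends the chain there. It is best known as an inhibitor of polyadenylation, the step in which a nascent transcript is cut downstream of its poly(A) signal and given a poly(A) tail, after which RNA polymerase II stops. Macrophages at rest transcribe abundant housekeeping and lysosomal genes together with unstable mRNAs of transcription factors and signalling feedback, whose levels follow transcription closely. The arrays were labelled with an Agilent kit that primes from the poly(A) tail, so a change in RNA level and one in its tail cannot be told apart here, and neither can fewer cells and less RNA per cell.

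The cells carried the markers of their label. All 10 macrophage markers, among them Csf1r, the receptor of the macrophage growth factor, were well above background on all 8 arrays, and none passed the test. Their summed log2 signal ranged from 18.96 to 19.26 in DMSO and from 19.16 to 19.28 in cordycepin. Of the 27 markers of other cell types on the array, 4 were well above background on all 8 arrays. They were 2 of the T and NK cell list and 2 of the neutrophil, mast cell and dendritic cell list. A further 11 were well above background on none, including the B cell gene Ms4a1. Their summed signal overlapped between the groups for every list. Between 22366 and 28663 of the 59305 spots were well above background per DMSO array and between 22854 and 30351 per cordycepin array, with more on the second slide in both groups. Siglech, a receptor of plasmacytoid dendritic cells that was not counted among the 27, was bright as well. Cordycepin replicate 3 had an isolated low spot for it, at a log2 signal of 10.03 against 16.29 to 16.58 on the other cordycepin arrays.

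Cordycepin raised many more genes than it lowered when a change of at least 2-fold was asked for. With limma over all 16 arrays, Benjamini-Hochberg adjustment over all genes tested, an adjusted p below 0.05 and a minimum of 2-fold, 713 genes were raised, which is 4.49% of those tested, and 168 were lowered, which is 1.06%. Without a minimum fold, 1307 genes were higher (8.23%) and 1198 were lower (7.55%), of which 594 rises and 1030 falls were under 2-fold. The median change of all genes was 0.04 on the log2 scale. Of the raised genes, 293 rose at least 4-fold, against 11 of the lowered genes that fell as far. Scaled to the spiked-in control RNA in place of the 75th percentile, every call of any size also passed 2-fold (627 rises and 72 falls). There 89.7% rather than 52.2% of the calls of any size were rises. The balance of these calls turned to falls with other settings, with rises making up 43.8% under quantile normalization, 42.8% with the 75th percentile of all probes, 43.8% with normexp, 44.2% in the authors' values and 39.3% among genes well above background on all 16 arrays.

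The direction held over the replicates. All but 8 of the raised genes were higher with cordycepin in each of the 4 same-numbered pairs (705 of 713), and 167 of 168 lowered genes were lower in each pair. The 4 cordycepin values lay wholly above the 4 DMSO values for 695 raised genes and wholly below for 162 lowered genes. By slide, 712 of the raised genes had a positive difference on both slides, and all 168 lowered genes had a negative one. Both groups of calls were chosen by this same difference, so these counts describe the calls and do not test them.

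**Figure D1:**
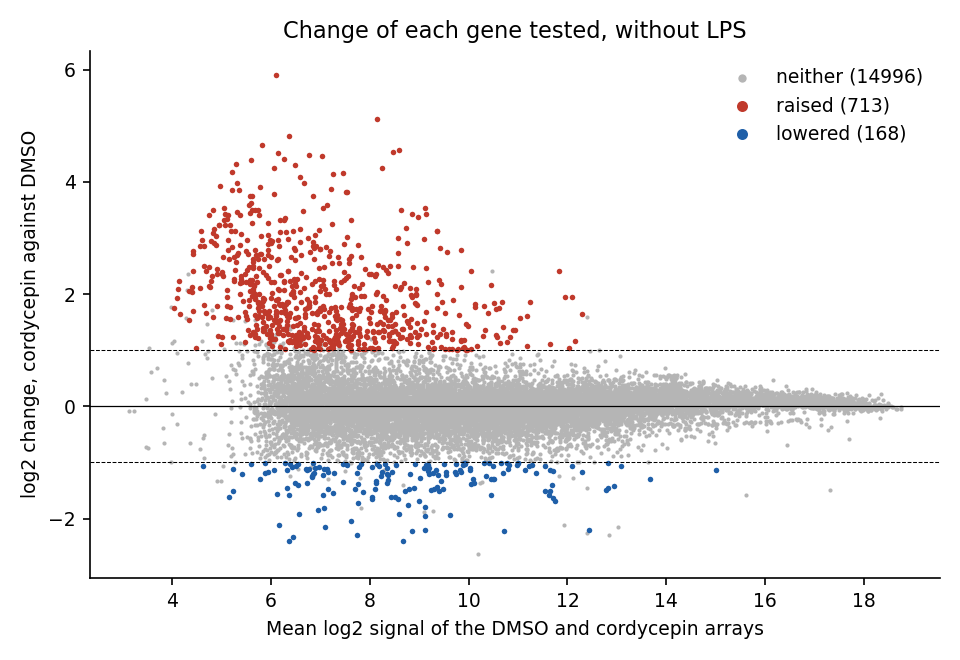
Each point is 1 of the 15877 genes tested, with its mean log2 signal over the 8 arrays on the horizontal axis and the log2 change, cordycepin against DMSO, on the vertical axis; dashed lines mark a 2-fold change. The 713 raised genes (red) lie mostly at low signal, and the 168 lowered genes (blue) extend to brighter probes.

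The raised RNAs were faint in resting cells. The median log2 signal of the raised genes was 5.90 in DMSO and 7.83 with cordycepin, whereas that of all genes tested was 10.37 in DMSO. When genes were divided into quartiles by their mean signal over all 16 arrays, 548 of 3970 genes (13.8%) of the lowest quartile were raised, then 3.48% of the second, 0.68% of the third and none of the 3969 of the highest, where 7 genes were lowered (limma), and at any size 100 of these were higher and 104 lower. The lowered genes were spread over the lower 3 quartiles, with 65, 64 and 32 genes. A gene entered the test when, in any one of the 4 conditions, its probe was bright enough on every array. Of the raised genes, 450 did not meet this on all DMSO arrays and 136 were well above background on none, so their fold change has no fixed size. Among genes well above background on all 16 arrays, which excludes any gene that was faint in a single group, 226 were raised and 121 were lowered.

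The share of raised genes differed between kinds of RNA. Of the 10782 genes measured by a probe for a RefSeq mRNA, 302 (2.80%) were raised and 136 (1.26%) lowered. The array also carries probes for transcribed stretches between genes, named by their coordinates, and 199 of 1622 of these (12.3%) were raised and 8 lowered. RefSeq noncoding RNAs (36 of 309 raised, 11.7%) and GenBank cDNAs (89 of 752, 11.8%) gave similar shares. Ensembl transcripts (31 of 429, 7.23%) and RefSeq predicted RNAs (18 of 285, 6.32%) lay between these and mRNAs. EST assemblies (17 of 716, 2.37%) and probes outside all these classes (21 of 982, 2.14%) were raised about as seldom as mRNAs. The RNA classes differ in brightness, with a median signal of 13.09 for EST assemblies, 10.69 for mRNAs and 7.73 for intergenic probes. Within the lowest quartile of signal the shares were closer, 232 of 1934 mRNAs, 16.1% of intergenic probes and 21.2% of noncoding RNAs. A faint RNA could enter the test through its cordycepin arrays alone, within this quartile too. This can add raised members to the fainter classes, and class shares among genes bright on every array are not given here. Calls of any size showed another division. Of the RefSeq mRNAs, 607 were higher and 1036 lower, whereas 291 intergenic probes were higher and 46 lower.

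**Figure D2:**
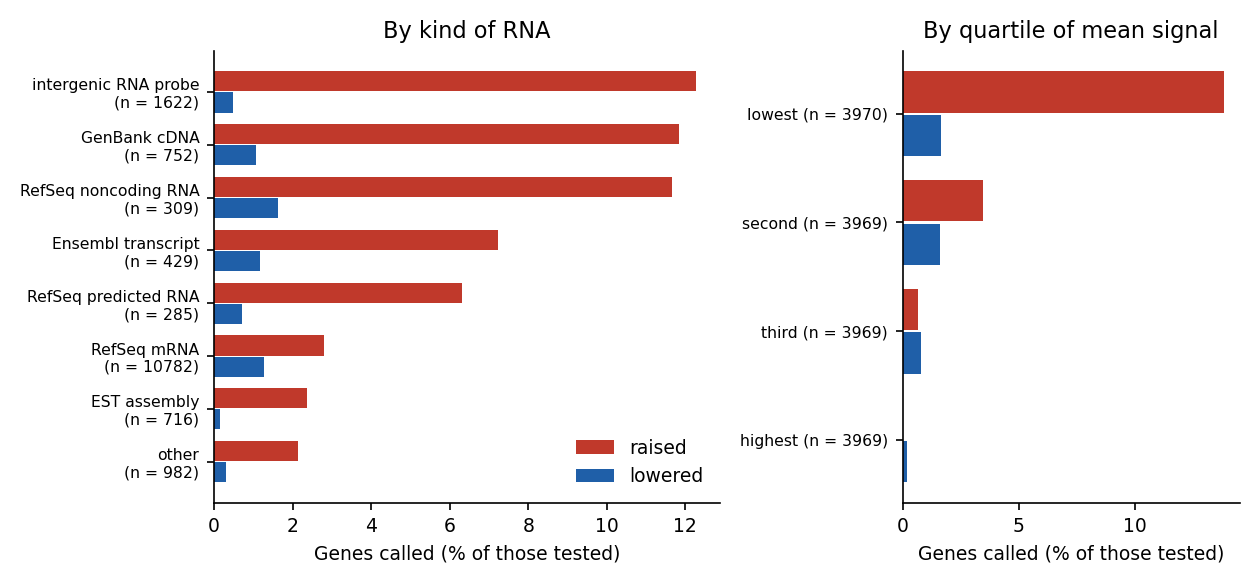
Bars give the percent of tested genes called raised (red) or lowered (blue), by kind of RNA on the left and by quartile of mean signal on the right, with the number tested. Intergenic probes, GenBank cDNAs and RefSeq noncoding RNAs stand at about 12% raised, RefSeq mRNAs at 2.80%, and the lowest signal quartile at 13.8%. Faint RNAs could enter the test through their cordycepin arrays alone.

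The 12 largest rises among named genes measurable on all 8 arrays ranged from 2.49 to 3.38 on the log2 scale. Stmn4, which encodes a neuronal regulator of microtubules, gave a log2 signal of 7.18, 6.99, 7.51 and 7.48 on the DMSO arrays and 10.57, 10.68, 10.84 and 10.56 on the cordycepin arrays. This rise of 3.38 (SE 0.13, n = 4 arrays each, adjusted p = 5.97e-10, limma) was the largest of them, 10.4-fold, and its other probe rose by 3.09. Abcg4, a lipid transporter, went from 7.54 to 8.07 in DMSO to 10.65 to 11.24 with cordycepin (3.13, SE 0.19, adjusted p = 2.01e-08, limma), although 1 of its 2 other probes gave 0.38 and the other 3.07. Fgf18, a growth factor of bone and cartilage, rose by 2.73 and its other probe by 3.15. Gpd1, the cytosolic glycerol-3-phosphate dehydrogenase of fat and muscle, went from 6.21 to 6.35 in DMSO to 8.79 to 9.16 with cordycepin (2.69). The others were Fam189b (3.13), Stac3 (2.99), which serves muscle contraction, the transporter gene Slc23a3 (2.90), Serpinf2 (2.88), the plasmin inhibitor of liver, Ovgp1 (2.83), an oviduct glycoprotein, Tspoap1 (2.79), Wfikkn1 (2.76), an inhibitor of myostatin, and Scx (2.49), a transcription factor of tendon. In none of the 12 did the groups overlap.

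**Figure D3:**
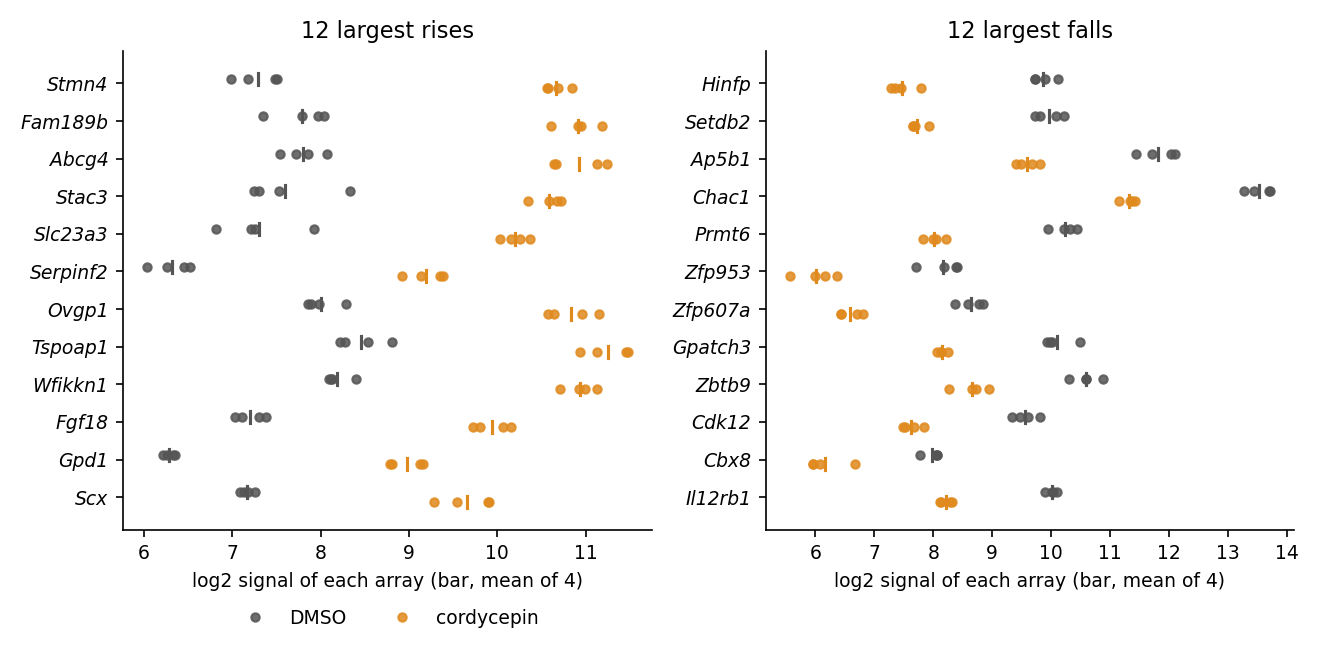
Log2 signal of each DMSO array (grey) and each cordycepin array (orange) for the 12 largest rises (left) and the 12 largest falls (right) among genes well above background on all 8 arrays; vertical bars are means of 4 arrays. The groups are separate for all 24 genes, from a rise of 3.38 for Stmn4 to a fall of 2.39 for Hinfp.

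Other genes were detected with cordycepin only, so the change has a lower limit. The limit was computed against the lowest signal that still counted as well above background, array by array, in DMSO. Aoc3, a vascular amine oxidase, was well above background on no DMSO array and reached a log2 signal of 8.73 to 9.41 with cordycepin, at least 15.9-fold higher (adjusted p = 8.63e-09, limma). A second Aoc3 probe that passed the filter showed no change (0.00). The probe annotated as Btg3 (at least 14.9-fold), Slc27a5, a bile acid enzyme of liver (at least 12.99-fold), and Gm1123 (at least 11.9-fold) followed. The array places the Btg3 probe on chromosome 17, whereas RefSeq has the gene on another chromosome. In the other direction, 1 lowered gene was undetected on all cordycepin arrays, Adm, which encodes the vasodilator adrenomedullin and was chosen after its values were seen. It was well above background on 1 DMSO array (-1.06, adjusted p = 0.0441, limma), and without replicate 2 it did not pass (-0.63).

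The position relative to other genes, which the calls had not used, differed between the raised genes and the rest. For each tested gene the nearest RefSeq mRNA probe was found in each direction from the array's own probe positions (mm9), which gave 15772 genes, 711 of them raised. Of the raised genes, 330 (46.4%) had another gene's mRNA probe within 20 kb upstream on the same strand, against 18 of 168 lowered genes (10.71%) and 1714 of 14893 genes called neither way (11.5%). Downstream on the same strand the corresponding shares were 10.8%, 8.93% and 10.9%. The share of genes raised fell with the distance to the upstream probe, from 84 of 442 genes up to 5 kb to 15.2% at 5 to 20 kb, 5.91% at 20 to 50 kb, 2.65% at 50 to 100 kb and 2.01% beyond. For a neighbour downstream on the same strand it was 2.41% to 4.91% at every distance, and for neighbours on the other strand 3.75% to 6.12%.

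The division was present within levels of signal too. In the lowest signal quartile, 37.1% of the 167 genes with an upstream probe within 5 kb and 39.1% of the 481 at 5 to 20 kb were raised, against 5.92% of the 2196 beyond 100 kb. Among genes well above background on all 8 arrays, 44.1% of 263 raised genes, 12.2% of 131 lowered genes and 11.3% of 13799 others had an upstream probe within 20 kb. The same held for both kinds of RNA. The share within 20 kb was 53.3% for raised mRNAs and 47.0% for raised intergenic probes, against 11.5% and 14.9% of those called neither way. Neighbouring genes share regulators and genome context and are not independent, so these shares are given without a test.

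**Figure D4:**
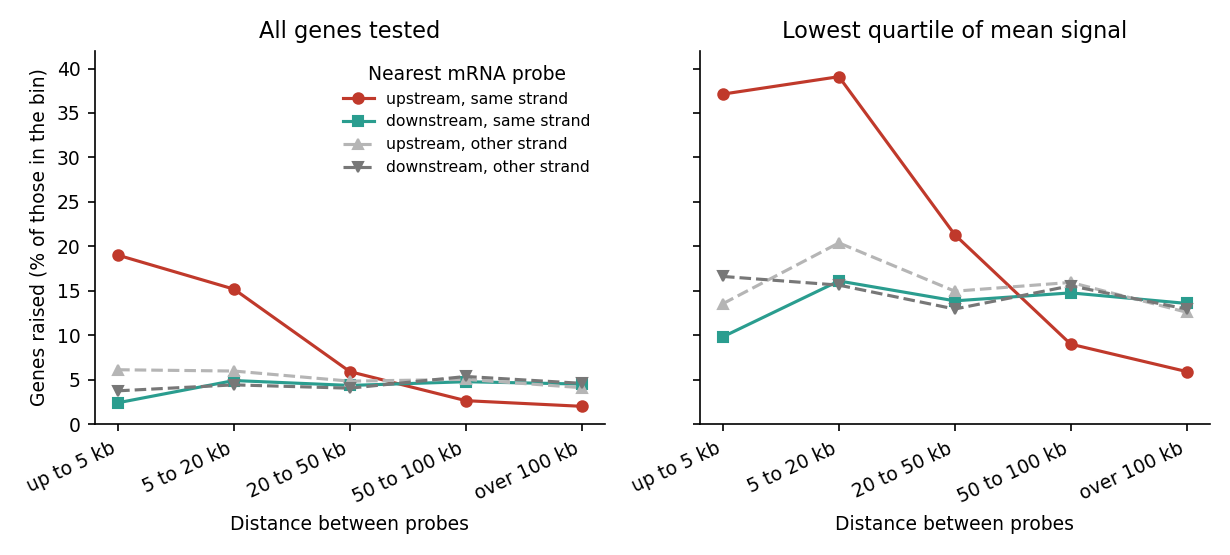
Percent of tested genes that were raised, by distance to the nearest RefSeq mRNA probe of another gene upstream or downstream, on the same or the other strand, for all genes (left) and for the lowest quartile of mean signal (right). With the neighbour upstream on the same strand (red) the share falls from 84 of 442 genes to 2.01% for all genes and from 37.1% to 5.92% for the lowest quartile, while the other 3 lines lie between 2.41% and 6.12% for all genes.

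The upstream genes themselves were more often lower than higher. Over the 330 raised genes the median log2 change of the upstream gene was -0.05, and 5 of the upstream genes were called raised and 5 lowered. At any size 13 were higher and 57 lower, against 88 higher and 180 lower of the 1714 upstream of genes called neither way. Wfikkn1 lay 4465 bases from Rab40c, a Rab-like component of ubiquitin ligases. Rab40c gave a log2 signal of 12.45 ± 0.12 in DMSO and 11.58 ± 0.12 with cordycepin (SD, n = 4), while Wfikkn1 rose from 8.18 ± 0.14 to 10.94 ± 0.17. Fam189b lay 6476 bases from Scamp3, which changed by 0.05. Abcg4 lay 22608 bases downstream of Hinfp, the largest fall among called genes measurable on all 8 arrays. Apoe, the lipid carrier that macrophages secrete, rose from 10.01 to 10.67 in DMSO to 12.01 to 12.39 (1.85, SE 0.15, adjusted p = 4.28e-07, limma) and lay 4916 bases from Tomm40, which changed by 0.13. The probe annotated as Btg3, which the array places away from that gene's RefSeq chromosome, was nearest to Plcl2, 11674 bases upstream. Mpo, the neutrophil myeloperoxidase, which was well above background on 2 DMSO arrays and rose by 2.02 to 6.87 to 7.24, lay 18423 bases downstream of Tspoap1, itself among the 12 largest rises. Of the other neutrophil markers, S100a8 changed by 0.47 (adjusted p = 0.525, limma), Elane changed by -0.21 (adjusted p = 0.676, limma), and S100a9 was at background on all 8 arrays.

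The promoters of raised mRNAs held fewer CG pairs than those of the other mRNAs tested. In the 250 bases before the first start that RefSeq lists (GRCm38.p6), 226 raised mRNA genes had a median of 7 CG dinucleotides (quartiles 3 and 14), 117 lowered genes 16 (10 and 23) and 8373 genes called neither way 16 (9 and 23). Over all promoters in the table, tested or not, the median was 6 (2 and 16). Within the lowest signal quartile the medians were 7, 13 and 13, and within the upper 3 quartiles 5, 16 and 16. With the start of most CG pairs for each gene they were 7, 16 and 17. A gene faint in DMSO could enter the test through its cordycepin arrays alone, whereas one that stayed faint in every condition was left out. This can shift the medians, and those among genes bright on every array are not given here. The letters TATAAA, on either strand, were present in 10.6% of raised, 8.55% of lowered and 6.53% of the other promoters, and in 12.97% of all 27025 promoters in the table. The letters GGGCGG, on either strand, were in 42.9%, 57.3% and 59.2%, and in 32.9% of all. Of the 12 largest rises 6 have a promoter in the table, with 5, 4, 3, 3, 1 and 37 CG pairs, the last being Fgf18. Of the 12 largest falls 10 have one, with 3 to 36. The sequences below, 5′ to 3′ with CG in capitals, are those of the largest rise with a listed promoter, of the gene closest to its upstream neighbour among the 12 largest rises, of that neighbour, and of the largest fall with a listed promoter.
Fam189b, raised, chr3:89182893-89183142, plus strand: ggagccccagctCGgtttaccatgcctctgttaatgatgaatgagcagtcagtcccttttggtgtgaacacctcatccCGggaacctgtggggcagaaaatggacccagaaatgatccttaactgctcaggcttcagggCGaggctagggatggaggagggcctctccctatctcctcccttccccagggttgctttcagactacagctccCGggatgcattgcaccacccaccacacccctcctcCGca
Wfikkn1, raised, chr17:25880859-25881108, minus strand: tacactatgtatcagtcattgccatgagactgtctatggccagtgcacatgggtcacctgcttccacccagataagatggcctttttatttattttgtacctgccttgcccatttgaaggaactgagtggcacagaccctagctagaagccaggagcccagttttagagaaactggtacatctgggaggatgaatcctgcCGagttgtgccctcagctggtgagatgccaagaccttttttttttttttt
Rab40c, upstream of Wfikkn1, chr17:25919715-25919964, minus strand: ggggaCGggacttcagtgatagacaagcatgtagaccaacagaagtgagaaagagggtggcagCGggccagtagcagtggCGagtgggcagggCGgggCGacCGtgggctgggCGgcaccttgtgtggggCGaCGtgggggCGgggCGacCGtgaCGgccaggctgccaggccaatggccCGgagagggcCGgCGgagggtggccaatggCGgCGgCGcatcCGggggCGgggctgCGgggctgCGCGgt
Setdb2, lowered, chr14:59440881-59441130, minus strand: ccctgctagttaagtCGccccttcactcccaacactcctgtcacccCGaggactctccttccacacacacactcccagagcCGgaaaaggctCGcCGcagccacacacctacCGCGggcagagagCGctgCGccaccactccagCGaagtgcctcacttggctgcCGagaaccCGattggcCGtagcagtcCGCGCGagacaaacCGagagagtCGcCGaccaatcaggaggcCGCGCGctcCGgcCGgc
Fam189b holds 5 CG pairs, Wfikkn1 1, Rab40c 24 and Setdb2 24. A count of letters in this window says nothing of which factors bind there.

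The intergenic probes gave the same picture at single sites. The 3 largest rises and the largest fall among those measurable on all 8 arrays are shown by the 60 bases of the probe, in the sense of the RNA it detects (mm9).
Rise of 3.53, chr10:96098468-96098527, plus strand: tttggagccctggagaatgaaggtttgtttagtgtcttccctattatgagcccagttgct
Rise of 3.51, chr10:96103807-96103866, plus strand: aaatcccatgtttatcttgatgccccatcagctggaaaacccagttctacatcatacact
Rise of 3.43, chr1:133839635-133839694, plus strand: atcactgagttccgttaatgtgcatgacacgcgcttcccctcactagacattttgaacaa
Fall of 1.47, chr17:26911743-26911802, plus strand: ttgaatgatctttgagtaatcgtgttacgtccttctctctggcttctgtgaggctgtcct
The first and the second lie 16338 and 21677 bases downstream of the mRNA probe of Btg1, an antiproliferative gene, and the third 10941 bases downstream of that of Nucks1, a chromatin protein. The first went from 6.83 to 7.61 in DMSO to 10.58 to 11.26 with cordycepin (SE 0.20, adjusted p = 8.73e-09, limma). The nearest mRNA probe upstream of the fourth was at a distance of 75352 bases, and its log2 signal went from 7.92 to 9.15 down to 6.84 to 7.18 (SE 0.19, adjusted p = 5.06e-05, limma).

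The 12 largest falls ranged from 1.80 to 2.39 on the log2 scale. Hinfp, a zinc finger factor that activates histone H4 genes, had a log2 signal of 9.72, 9.73, 9.90 and 10.11 in DMSO and 7.29, 7.35, 7.79 and 7.45 with cordycepin. The fall was 2.39 (SE 0.15, n = 4 arrays each, adjusted p = 4e-08, limma), or 5.25-fold, with no overlap. Setdb2, a histone methyltransferase, changed by -2.23, Prmt6, an arginine methyltransferase, by -2.21, Cbx8, a Polycomb protein, by -1.82, and Cdk12, the kinase of elongating RNA polymerase II, by -1.93. Zfp953 (-2.15), Zfp607a (-2.05) and Zbtb9 (-1.94) encode zinc finger proteins. Chac1, a glutathione-degrading enzyme of the stress response, went from 13.27 to 13.72 in DMSO to 11.16 to 11.42 with cordycepin (-2.21). The other 3 were Ap5b1 (-2.22), Gpatch3 (-1.96) and Il12rb1 (-1.80), a receptor chain for interleukin 12. Probes of one gene did not always move together. A second probe of Setdb2 gave 0.05 and those of Prmt6 0.82 and 0.78, while the second of Cdk12 gave -0.91. Over all genes, other probes that passed the filter gave the direction of the call for 37 of 42 probes of raised genes and 37 of 50 of lowered genes. A change of 2-fold in that direction was reached by 31 of the 42 and 14 of the 50.

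Over all genes, 8.23% were higher and 7.55% lower at any size, and the counts of the lists that follow are read beside these shares. Among RefSeq mRNAs alone, 5.63% were higher and 9.61% lower. Genes named Zfp, most of which encode DNA-binding zinc finger proteins, were lower far more often than higher. Of 263 tested, 74 (28.1%) were lower at an adjusted p under 0.05 and 10 higher, and 197 had a change below 0, with a median of -0.25 against 0.04 for all genes (limma). At 2-fold, 11 were lowered and 4 raised. The median was -0.25 within replicates 1 and 2 and -0.21 within replicates 3 and 4. Zfp951 (-1.48, adjusted p = 2.82e-07), Zfp386 (-1.17) and Zfp800 (-1.23) had the smallest adjusted p (limma).

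Immediate early and feedback genes, whose mRNAs last only a short time, were lower more often than higher among those that passed. None of 15 subunits of AP-1, the Fos and Jun family, was called at 2-fold, and 4 were lower at any size. They were Atf3, a stress-induced member (-0.99, SE 0.15, adjusted p = 0.000212), Batf2 (-0.66), Jun (-0.43) and Mafg (-0.37, and -0.22 without DMSO replicate 2) (limma). Atf3 was at 12.73 to 13.59 in DMSO and 11.85 to 12.22 with cordycepin. Of 12 dual-specificity phosphatases and Sprouty proteins, which switch off MAP kinases, 4 were lower and none higher. Their median was -0.49 (-0.56 to -0.19 over the scalings). The 4 lower genes were Dusp4 (-0.84), Spred1 (-0.75, with other probes at -0.40 and 0.03), Dusp1 (-0.75, and -0.47 and no longer past the test without replicate 2) and Dusp2 (-0.40). Of 21 other immediate early genes, 4 were lower, among them Plk3 (-0.80) and Arc (-0.79), and 3 higher, including Nr4a2, a nuclear receptor (1.01), and Srf (0.62, second probe -0.16), with a median of -0.20. Among 10 Kruppel-like factors Klf2 (-1.21) and Klf4 (-0.95) were lower. Both rest on unequal replicates. DMSO replicate 2 gave 11.08 for Klf2 and the other DMSO arrays 9.26 to 9.51, and without it the change was -0.78. For Klf4 it gave 9.56 and the others 7.66 to 8.07, and without it the change was -0.54.

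Other transcriptional regulators changed in both directions. Of 34 regulators chosen for short-lived mRNAs, 10 were lower and 5 higher, with a median of -0.23. The 5 include Snai1, which could not enter the test through the DMSO arrays, so their count can be partly set by the filter. Arid5a, which stabilises cytokine mRNAs, changed by -1.51 and Arid5b by -1.01, while Hexim1, an inhibitor of the elongation factor P-TEFb, rose by 1.01 (SE 0.12, adjusted p = 2.2e-05, limma). Snai1, a repressor of epithelial genes, was detected on no DMSO array and rose at least 2.48-fold, 26435 bases downstream of the nearest upstream probe. Of 30 myeloid transcription factors 5 were lower and 5 higher. Runx1, a founder factor of blood cells, went from 10.11 to 10.87 in DMSO to 9.14 to 9.61 with cordycepin (-1.14, SE 0.16, adjusted p = 7.19e-05, limma), and its second probe changed by -1.16. Runx3 (-0.78, though its second probe gave 0.14), Cebpd (-0.61) and Bach1 (-0.59) were lower too. Of 14 circadian clock genes 5 were lower and none higher, with a median of -0.42, among them Clock (-0.78), Nfil3 (-0.74), Cry2 (-0.67) and Dbp (-0.47). In the Myc network Mxd1 was higher (0.91), although its second probe gave -1.51, and Mnt lower (-0.47), and Myc itself was well above background on 2 DMSO arrays and on no cordycepin array (adjusted p = 0.178, limma).

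The machinery that makes the 3′ end of mRNAs changed in single members. Of 21 polyadenylation and cleavage factors 3 were higher and 3 lower, with a median of 0.14. Papolg, a nuclear poly(A) polymerase, went from 8.50, 8.74, 8.63 and 8.64 in DMSO to 6.74, 6.71, 7.19 and 6.95 with cordycepin (-1.73, SE 0.16, adjusted p = 1.98e-06, limma). The cleavage endonuclease gene Cpsf3 (0.32) and Cstf3 (0.43, second probe -0.15) were higher and Cstf1 lower (-0.50), with a second Cstf1 probe at 0.61. Wdr33 (-0.03) and Cpsf4 (0.07), both of the complex that reads the poly(A) signal, did not pass the test. Of 33 Integrator, exosome and termination factors 1 was higher, Ints9 (0.27, second probe -0.04), and 2 were lower, Zcchc7 (-0.79) and Ints12 (-0.58, and -0.36 without DMSO replicate 2). None of 21 deadenylases and poly(A)-binding proteins passed, with Pabpc1 at 0.17 (adjusted p = 0.176, limma). Of 54 subunits of RNA polymerase II, Mediator and elongation factors 5 were lower, including Med23 (-0.90) and Med7 (-0.51) beside Cdk12, and 2 were higher. Among 37 splicing and hnRNP proteins Clk2, a kinase of splicing factors, was lower (-0.81), as was Srsf6 (-0.45, second probe 0.69), and Hnrnpa0 was higher (0.40). Of 19 regulators of mRNA decay Tia1 was raised (1.48, although its second probe gave -0.16) and Zfp36l1 lower (-0.36).

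Inflammatory genes at rest changed in both directions. Tnf, the central cytokine of macrophages, was at 11.29, 11.20, 10.83 and 10.98 in DMSO and 11.57, 11.39, 11.69 and 11.57 with cordycepin, a rise of 0.48 without overlap (SE 0.12, adjusted p = 0.00916, limma). Nfkbia, the inhibitor of NF-kB, was higher by 0.69. Of 20 NF-kB subunits, inhibitors and feedback genes 3 were higher and 4 lower, among the latter Tnip2 (-0.87, adjusted p = 2.15e-06) and Nfkbie (-0.66) (limma), and Cyld, a deubiquitinase, was higher (0.64). Of 25 genes of the Toll-like receptor pathway 5 were lower (20%, against 7.55% of all genes and 9.61% of RefSeq mRNAs). None was higher, and the median was -0.14. Ticam1, an adaptor of TLR3 and TLR4, changed by -0.83, the receptors Tlr6 and Tlr7 by -0.71 and -0.44, and Tab1 by -0.42. Ccl4 was lower (-0.69) among 14 chemokines. Cxcl2 was higher (1.91, adjusted p = 0.0341, limma), but its groups overlapped, with 6.71, 7.81, 4.44 and 4.18 in DMSO against 7.41 to 7.91. Of 21 cytokines 5 were higher, of which Tgfb2 (at least 5.31-fold) and Il17f (at least 2.76-fold) were detected on no DMSO array and Il11 (1.77) on 2. Tgfb2, Il17f and Il11 entered the test only through arrays with cordycepin. The count of 5 is thus partly set by the filter and is not compared with the share of all genes. Rela (-0.16) did not pass, and Il1b was well above background on none of the 8 arrays. Among effector enzymes Ptges was higher (0.36) and Ptgs2, the inducible cyclooxygenase, lower (-0.61).

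The interferon list varied between replicates. Of 38 interferon-stimulated genes 34 had a change below 0, with a median of -0.38, yet none was lower past the test and 1, Isg20, was raised (1.17, adjusted p = 0.0434, limma). The median was -0.81 within replicates 1 and 2 and 0.08 within replicates 3 and 4, and in replicate 2 alone it was -1.54. Isg20 overlapped between the groups and lay 11870 bases downstream of Aen. Socs1, a feedback inhibitor of interferon signalling, was lowered, from 6.43 to 7.96 in DMSO to 5.05 to 6.12 (-1.58, SE 0.27, adjusted p = 0.000631, limma), and it was well above background on 3 of the 4 cordycepin arrays. Jak1 (0.08) and Irf3 (-0.39, adjusted p = 0.0774, limma) did not pass.

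Among 39 genes of macrophage identity 1 was raised and 1 lowered (2.56% each, against 4.49% raised and 1.06% lowered of all genes). Apoe is the former, and Ptafr, the receptor of platelet activating factor, the latter (-1.37, SE 0.17, adjusted p = 2.74e-05, limma). Itgax was higher (0.42), and Cd68 changed by -0.05. Vegfa, an angiogenic factor, was lower (-0.45), and Pcna (-0.04) and Nes (-0.31) did not pass.

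Abundant housekeeping RNAs moved little. None of 79 ribosomal protein genes passed the test, and their median was 0.02 (-0.04 to 0.08 over the scalings), with Rpl28, a reference gene for PCR, at 0.08 (SE 0.10) and Gapdh at 0.02 (SE 0.11). One of 46 proteasome subunits (Psmd6, 0.28), 2 of 77 respiratory chain subunits (among them Uqcrc2, 0.24) and 1 of 38 lysosomal genes (Gusb, 0.32) were higher and none lower. Of 40 replication-dependent histone genes, listed as RNA without a poly(A) tail, only H2bc21 passed (1.34, adjusted p = 1.32e-06, limma). The labelling primes from that tail, so these values cannot show whether their levels held. The list median was -0.20 within replicate 1 and 0.68 within replicate 2. Of 73 genes picked by symbol for translation factors and tRNA synthetases Eif3l was higher (0.31). Lower were Eif1a (-0.61), Eef2k (-0.63, and -0.38 and no longer past the test without replicate 2) and Eef1aknmt (-0.37). Of 24 glycolysis genes Pfkfb3, which sets the pace of the pathway, was lower (-0.64, and -0.42 and no longer past the test without replicate 2). The respiratory chain median of 0.16, with 3 of 77 genes below 0, is of the size by which scaling moves it, from 0.09 to 0.22.

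Of 35 genes of adenosine and purine metabolism 5 were higher and none lower. The 5 include Ampd1, which could not enter the test through the DMSO arrays. Their count can thus be partly set by the filter and is not compared with the share of all genes. Ampd1, the AMP deaminase of muscle, was well above background on 1 DMSO array and reached 8.35 to 8.48 with cordycepin (4.52, adjusted p = 1.71e-06, limma). The synthesis enzymes Adsl (0.44) and Gart (0.39) and the kinase Ak1 (0.39) were among the others. Of 26 genes of the ATF4 response to amino acid and ER stress 6 were lower and none higher, with Cebpb (-0.73), Slc7a11, the cystine transporter (-0.73), and Herpud1 (-0.66) beside Chac1. Of 23 NRF2 targets 4 were lower, among them Nfe2l2 itself (-0.41) and Gclc (-0.40). Of 28 genes listed with heat shock and ER chaperones 4 were lower, with Dnajb9 (-0.76) and Xbp1 (-0.50). Of 30 p53 targets 4 were higher, including the death receptor Tnfrsf10b (0.81), Phlda3 (0.64) and the cell cycle inhibitor Cdkn1a (0.61), whose 2 other probes gave 1.41 and 1.15, and Sertad1 was lower (-0.73). Of 32 survival and apoptosis regulators 5 were lower (15.6%, against 7.55% of all genes and 9.61% of RefSeq mRNAs) and none higher. All 5 fell by less than 2-fold, with Bcl2l1 at -0.42 (second probe 0.06), Bid at -0.33, Bcl2l11 at -0.56 (second probe 0.25) and Ripk1 at -0.29. Of 29 genes of cholesterol synthesis Tm7sf2 was higher (0.82) and 2 were lower, among them Sc5d (-0.33). Of 47 cell cycle genes Ccnd3 (0.41), Top2a (0.43) and Cdkn1a were higher and Cdc25a lower (-0.40). Top2a was at 0.26 without replicate 2 and Cdc25a at -0.26 without replicate 3, neither past the test.

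**Figure D5:**
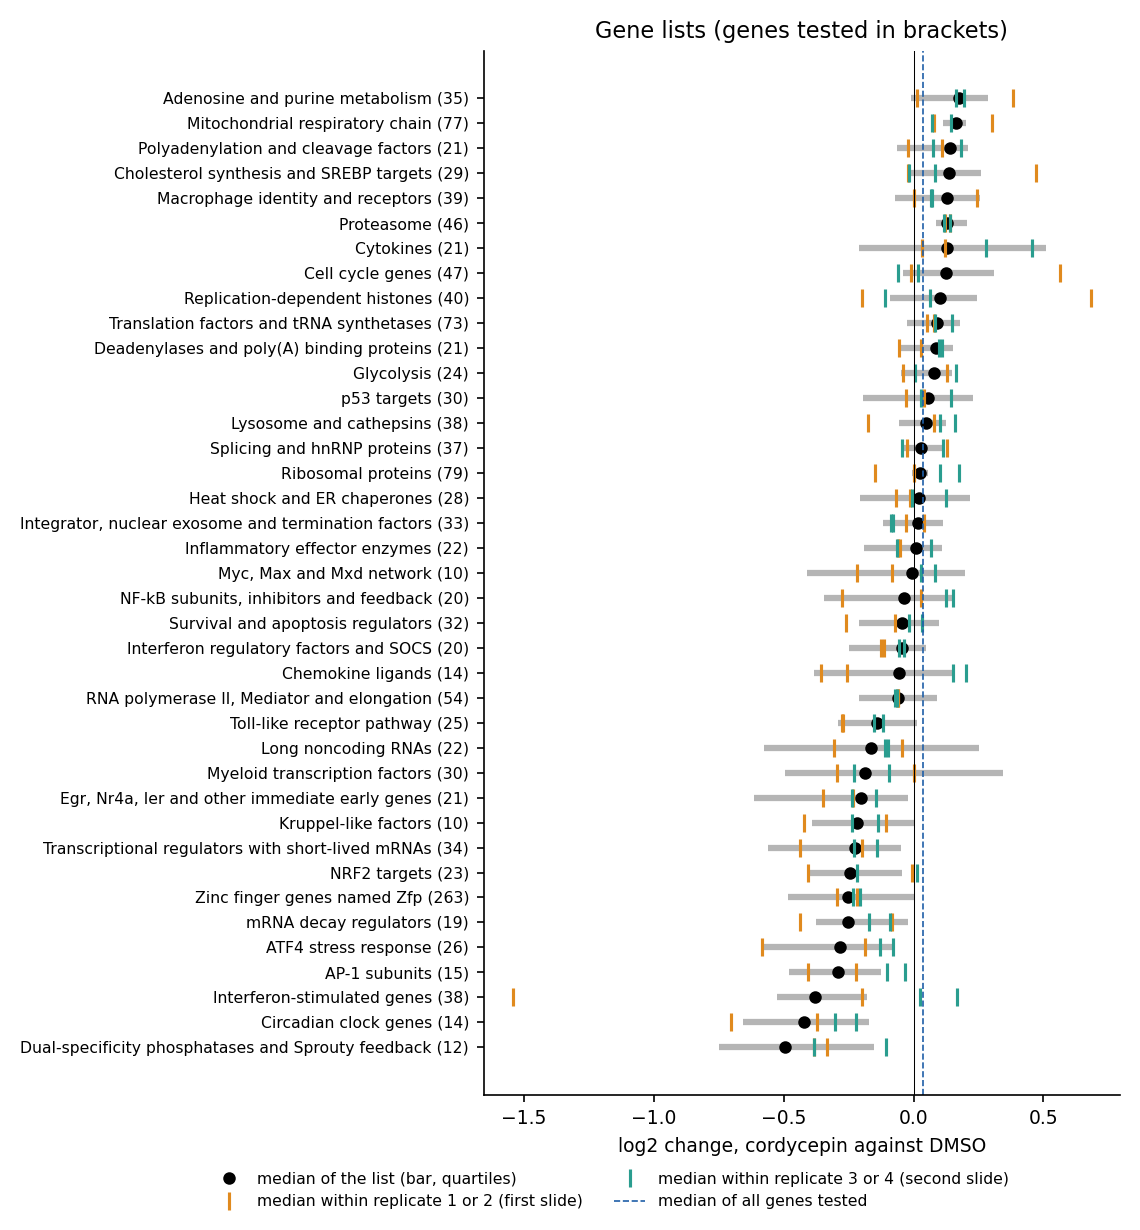
Median log2 change (black points) with quartiles (grey bars) of each list of at least 10 tested genes, and its median within replicates 1 and 2 (orange) and 3 and 4 (green), cordycepin against DMSO; the dashed line is the median of all genes, 0.04. Feedback phosphatases (-0.49), clock genes (-0.42) and Zfp genes (-0.25) lie below it and ribosomal proteins (0.02) beside it, and the interferon list spreads most between replicates.

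Long noncoding RNAs moved both ways. Of 22 tested, 7 were lower and 4 higher. Neat1, the scaffold of nuclear paraspeckles, went from 13.27 to 13.84 in DMSO to 11.88 to 12.25 (-1.46, SE 0.14, adjusted p = 2.55e-06, limma), and Pvt1 from 10.05 to 10.28 to 8.62 to 8.69 (-1.51, adjusted p = 1.41e-08, limma), with a second Pvt1 probe at 0.38. Hosts of snoRNAs moved both ways. Snhg17 (-0.55), Snhg5 (-0.65) and Gas5 (-0.53, and -0.32 and no longer past the test without replicate 2), which were chosen after their values were seen, were lower, while Dancr and Snhg10 rose, Dancr from 10.68 to 11.14 to 12.86 to 13.06 (1.95) and Snhg10 by 1.15.

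The change at rest was largely repeated in the arrays with LPS, which share no array with this comparison but share plates and slides. There, 942 genes were raised (5.93%) and 242 lowered (1.52%) by cordycepin (limma). Raised in both were 644 genes, 90.3% of those raised at rest and 68.4% of those raised with LPS. Lowered in both were 98 genes, 58.3% of those at rest and 40.5% of those with LPS, and no gene was raised in one and lowered in the other. Across the 15877 genes, which are not independent, the changes correlated by r = 0.84. The difference between the 2 changes passed the test for 88 genes (0.554%, limma interaction), among them 21 of those raised and 1 of those lowered at rest. This count was unstable, 208 with the replicate number as a block and 22, 49, 14 and 16 without replicates 1, 2, 3 and 4. Tnf passed, higher with cordycepin at rest but changed by -1.07 with LPS (difference -1.55, adjusted p = 0.00037, limma). The change of Hinfp was -2.39 in both settings, and those of Cdk12 (-1.93 and -1.88) and Papolg (-1.73 and -1.74) were almost equal.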

How the data were processed

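Members and gene lists were chosen with earlier results of these data known. Per the labels, the authors labelled total RNA with Cy3 and read the arrays with Agilent Feature Extraction (10.10.1.1). The deposited intensity is a processed signal, background-subtracted and detrended across each array, with no scaling between arrays. The authors' value table holds log2 values of 25775 spots, already normalized between arrays (upper quartiles 11.82 to 11.839), and served as an alternative.

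Outlier spots were left out, spots of a probe averaged, and the log2 signal scaled to each array's 75th percentile, taken over 18064 probes that were bright on every array. Probes bright on every array of 1 condition were kept (21598), and the brightest stood for its gene. Probes took RefSeq names by accession (27650), symbol (3406) or synonym (321), and 24304 kept the array's name. Using limma 3.58.1 (R 4.3.3), all 16 arrays entered one model with a mean per condition and no block. Calls needed 2-fold and an adjusted p below 0.05. On simulated data 198 of 200 changed genes among 15877 were recovered, with 6 false calls. The simulated noise was independent between arrays, without slide or replicate effects. All planted changes exceeded 2-fold and lay in genes above the median signal. The simulation therefore does not show how well faint genes or smaller changes are recovered. Python 3.11.15, pandas 2.3.3 and matplotlib 3.10.9 made tables and plots. The number of arrays limits the precision.

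Named genes are the 12 largest rises and falls among genes with a symbol, called, moving one way in 4 pairs and well above background on all 8 arrays; the 4 largest bounded rises; up to 4 listed members with the smallest adjusted p under 0.05, or the 2 brightest; the study's genes; and 3 intergenic rises and falls. Neighbours were chosen by position, and S100a9, Elane, Csf1r, Ms4a1 and Siglech are markers. Some genes are not reported here.

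Replicate numbers pair the samples by the labels, since a number marks a shared plate and day. Residuals of same-numbered DMSO and cordycepin arrays correlated by 0.12 to 0.33 (mean 0.20).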

Additional observations from a re-analysis of the deposited data

Results flagged for a closer look

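Within the named genes, 332 groups of 4 arrays were examined for 1 array far from the other 3, and 21 had one; chance gives about 1 in 20. The ratio of the gap to the range is given for each. In DMSO replicate 2 stood apart for Runx3 (0.866), Tm7sf2 (0.917), Psmd6 (0.874), Dusp4 (0.890), Plcl2 (0.925), Klf2 (0.862), Gpatch3 (0.848) and the intergenic probe near Btg1 (0.830). DMSO replicate 1 stood apart for Wfikkn1 (0.894), Cbx8 (0.941) and Phlda3 (0.914), and DMSO replicate 4 for Snhg5 (0.832). Among the cordycepin arrays replicate 1 stood apart for Setdb2 (0.838), Nfe2l2 (0.843) and Ints12 (0.883), replicate 2 for Cebpb (0.964) and Zfp386 (0.864), replicate 3 for Siglech (0.956), Xbp1 (0.840) and Snai1 (0.850), and replicate 4 for Pvt1 (0.861).

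The change with cordycepin differed between cells with and without LPS for 9 of the named genes (limma interaction, the change with LPS minus that at rest). It was lower with LPS for Tnf (-1.55, adjusted p = 0.00037), Tspoap1 (-1.60, adjusted p = 0.0113), Bcl2l11 (-1.21, adjusted p = 0.0338), Cebpd (-0.90, adjusted p = 0.0113), Atf3 (-1.02, adjusted p = 0.048), Herpud1 (-1.22, adjusted p = 0.0111) and Nfkbia (-0.74, adjusted p = 0.0109). It was higher for Mpo (1.95, adjusted p = 0.00626) and the intergenic probe near Nucks1 (1.17, adjusted p = 0.0161).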

How the results depend on the processing

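The excess of raised over lowered genes at 2-fold was kept in every setting tried, but the counts moved. Against 713 raised and 168 lowered genes, scaling to spiked-in controls gave 627 and 72 (also 627 and 72 at any size), normexp background correction 300 and 91, the authors' values 457 raised, probes well above background on all 16 arrays 226 raised, and every probe on its own 1199 raised. Against 1307 higher and 1198 lower genes of any size, normexp gave 783 and 1003, genes bright on every array 706 and 1090, quantile normalization 1183 and 1516, the 75th percentile of all probes 1121 and 1501, and the authors' values 1064 and 1344, so that falls outnumbered rises in these 5; every probe on its own gave 2098 higher, no filter on dim probes 738 lower and an adjusted p below 0.01 731 lower. Leaving out replicates or single arrays gave 607 to 744 raised, 137 to 183 lowered, 832 to 1353 higher and 698 to 1234 lower genes, the lowest of the last 2 without replicate 3. The 88 genes whose change differed with LPS became 12 with spiked-in scaling, 55 with normexp, 11 without the filter, 208 with the replicate block, 244 with the slide as a block and 14 to 109 when replicates or arrays were left out. The replicate block gave 728 raised and 175 lowered genes and, at any size, 1517 higher and 1422 lower. The cause of these shifts was not tested.

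Of 143 named genes past the test, 46 stayed past it in all 27 settings. Taking the mean of a gene's probes turned Srsf6 (0.12), Mxd1 (-0.30) and Cstf1 (0.058), none past the test there. The median of 17 of 44 lists changed sign over the scalings. Signals near background limit the size of rises from undetected genes.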
